A study of Rattus norvegicus with 12 samples.

Results

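Transcript levels of the proteasome, the large protease complex that breaks down proteins tagged with ubiquitin, were followed in rat N27 cells exposed to the insecticide fipronil. Members were all non-control probes whose gene name in the array files is Psma to Psmg followed by a digit, or Pomp, Adrm1 or Shfm1. The rule found 53 of 36180 gene names, on 61 of 45598 probes and 131 of 58717 spots. Of these 53 names, 51 were tested, each with a probe that exceeded background clearly (the software's flag) on 6 or more of the 12 arrays. Among the tested names, 49 belong to the proteasome itself. They include both Psma3 and Psma3l, a synonym of Psma3 in RefSeq, so counts of the 49 hold this gene under both names. Of the 49, 48 stood well above background on every array. The exception was Adrm1, on 11 of the 12. The other tested names were Psmc3ip, which encodes a recombination factor and no proteasome subunit, and Psme1-ps1, a pseudogene.

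N27 is an immortalised line of rat midbrain origin, labelled a dopaminergic neural line, and all samples came from this line alone. In the fipronil group, 6 samples of N27 cells received 25 µM fipronil for 24 h, and the control group is 6 samples of the same cells, untreated by the design text and labelled as controls in title and treatment label. The labels' treatment protocol names fipronil for every sample, controls included, so the groups rest on those other fields. Fipronil is a phenylpyrazole that acts as an antagonist of GABA-gated chloride channels. Total RNA was labelled with Cy3 and hybridised to one-colour Agilent rat arrays, 1 array per sample. Whether the controls received a solvent, and whether replicates were separate cultures, is not given in the sources used here, so the spread behind each p-value is that of these 6 samples per group and could be technical. In bulk RNA, fewer cells of a kind and less RNA per cell cannot be told apart.

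The proteasome is a barrel of stacked rings, built of outer alpha rings that gate entry and inner beta rings that carry the proteolytic sites, with a regulatory particle on its ends. The base of that particle unfolds substrates with a ring of ATPases, and the lid removes ubiquitin chains. In many mammalian cells the genes are transcribed together and rise together when proteasome activity falls short, through the transcription factor Nfe2l1. Immune signals exchange the catalytic beta subunits for the immunoproteasome set and add the Psme1 and Psme2 activator.

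Values are log2 signals relative to the 75th percentile of their own array, so a level of 0 equals that percentile, and differences are fipronil minus control. The 12 arrays lay on 3 slides. Slide 1 carried both treatments (control replicates 2 and 3, fipronil replicates 7 and 8), whereas slide 2 carried only control replicates 5, 6, 7 and 8, and slide 3 only fipronil replicates 1, 2, 3 and 4. The 75th percentile of the processed signal was 245 to 279 on slide 1, 379 to 472 on slide 2 and 111 to 140 on slide 3, and 40.8% to 50.02% of the spots on an array stood well above background. Treatment and slide therefore cannot be told apart on slides 2 and 3. Differences are given over the 12 arrays and, for many genes described singly, also on slide 1 or across slides 2 and 3. For the others only the 12-array difference is given, in which treatment and slide are not separated. Of 8 dopaminergic markers, Th was well above background on all 12 arrays and Aldh1a1 on 8, and Slc6a3, Ddc, Pitx3 and Foxa2 on none. Of 8 neuronal markers, Eno2, Ncam1 and Stx1a were above background on all 12 arrays and Tubb3 on 9, and Map2, Syt1, Snap25 and Rbfox3 on none. The summed linear level of these 4 measured neuronal markers, relative to the 75th percentile, was 1.69 to 2.31 in the controls. With fipronil it was 2.12 to 3.31, which overlapped the control range. Ncam1 was called higher (difference 0.73, limma adjusted p = 0.017, and 0.47 with slide as a block). Eno2, Stx1a and Tubb3 gave 0.42, 0.62 and -0.355 and did not pass. The dopaminergic markers Th and Aldh1a1 gave -0.48 and -0.84 and did not pass either (limma adjusted p = 0.15 and 0.068). On slide 1 Th and Aldh1a1 gave 0.096 and -0.98. Markers of other cell types were measured in part, with Sox9 and Aldoc (astrocytes), Cd14 and Cx3cr1 (microglia and leukocytes) and Flt1 and Vwf (endothelium) above background on all 12 arrays, and Gfap, Aif1, Ptprc and Pecam1 on none. Their measured sums overlapped between the groups, as did that of the oligodendrocyte markers Cnp and Mag, and none of these 8 genes passed, with Flt1 at 0.69, Mag at -0.69 and Cnp at -0.53. The part of these markers in the results that follow was not tested.

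Most proteasome transcripts were slightly lower in the fipronil group, and 4 fell past the threshold. These were the alpha-ring subunits Psma1 and Psma5, the beta-ring subunit Psmb3 and the lid deubiquitinase Psmd14, which were lower by 1.36-fold, 1.47-fold, 1.48-fold and 1.41-fold. With limma and Benjamini-Hochberg adjustment over all 13543 genes tested, these 4 of 49 passed at an adjusted p under 0.05, and 0 were higher. Over all genes 5.01% were called, 2.77% lower and 2.24% higher. At an unadjusted p under 0.05, 18 of the 49 were lower (36.7%, against 15.7% of all genes) and 1 was higher, Psma3l (2.04%, against 9.37%). At any size 39 of the 49 were lower (79.6%, against 59.7% of all genes). The median difference of the 49 was -0.21, beside -0.08 over all genes and -0.09 over the 2478 genes within the middle range of proteasome signal.

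The lower median was present on every fipronil array. Measured from the control mean of each gene, the median of the 49 genes lay between -0.34 and -0.12 on the fipronil arrays and between -0.13 and 0.17 on the control arrays. The ranges therefore met at control replicate 8, where 39 of the 49 genes lay under the control mean, as against 28 to 45 on fipronil arrays. Over all genes the same median lay between -0.09 and 0.01 on fipronil arrays.

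**Figure D1:**
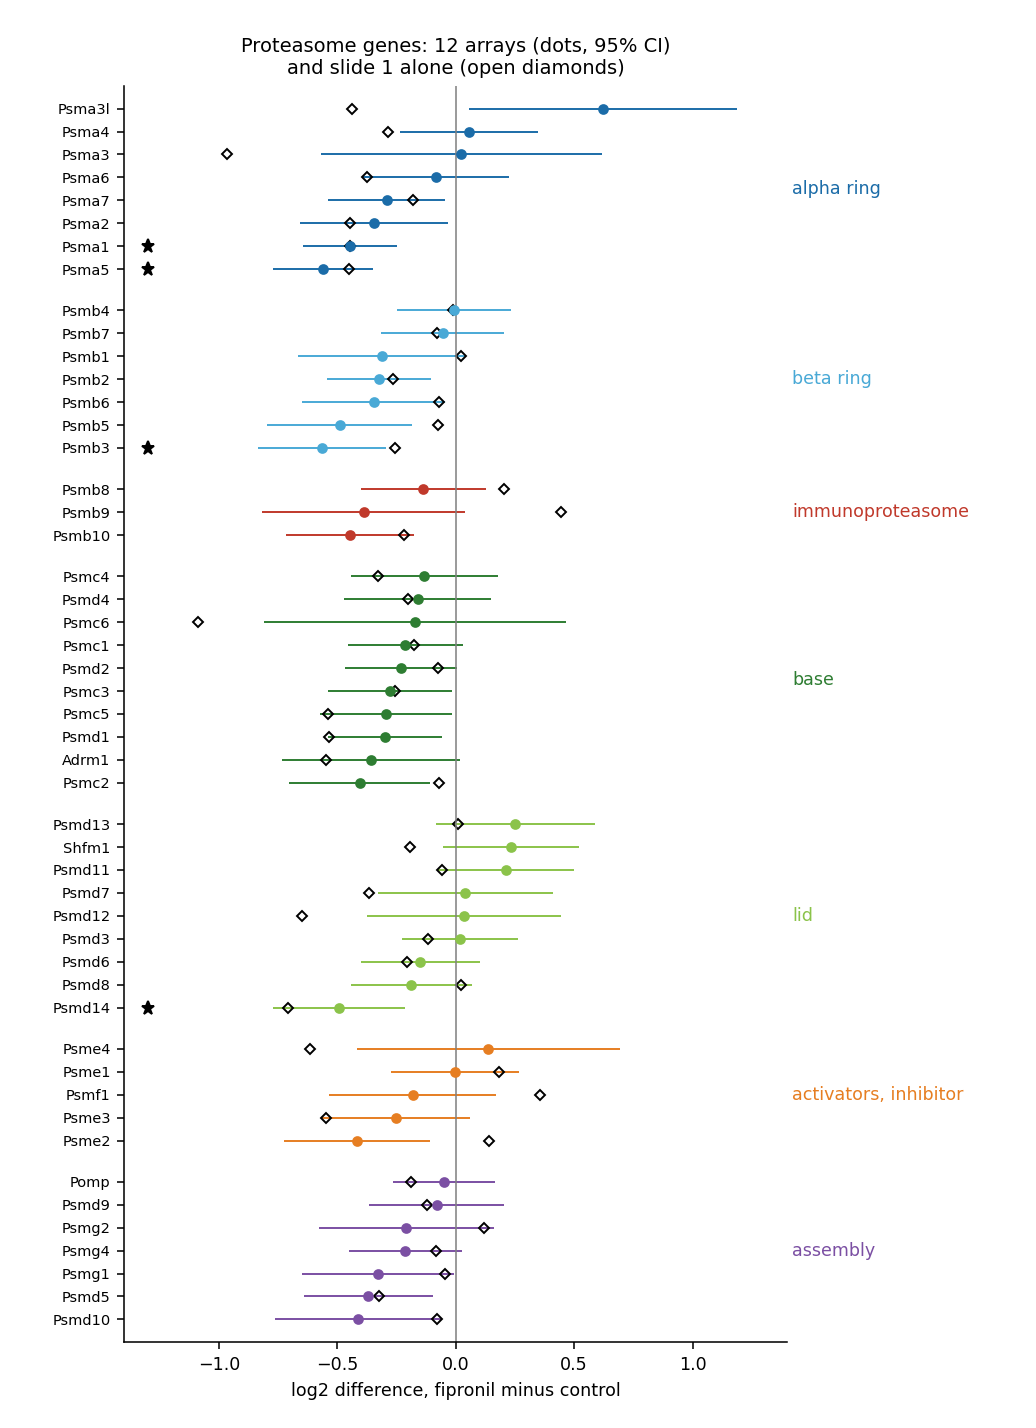
Log2 differences (fipronil minus control) of the 49 tested proteasome genes, grouped by class. Dots with bars are the 12-array estimate with its 95% interval, open diamonds the difference on slide 1, and stars the 4 genes with an adjusted p under 0.05. Of the dots, 39 lie left of 0, and all 10 genes of the base lie left of 0 in both measures.

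In the alpha ring, Psma1 and Psma5 fell, and the other 6 names did not pass. Psma1 had signals of 3.28, 3.22, 3.23, 3.27, 3.31 and 3.16 in control replicates 2, 3, 5, 6, 7 and 8. In fipronil replicates 1, 2, 3, 4, 7 and 8 it had 2.92, 2.88, 2.62, 2.77, 2.74 and 2.87. Every fipronil array lay below every control array, and slides 1 and 3 gave alike values. Psma1 fell by 0.45 ± 0.09 (SE, n = 6 per group, limma adjusted p = 0.020). The difference was -0.45 on slide 1 and -0.45 across slides 2 and 3.

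Psma5, the other alpha subunit called, had signals of 3.80, 3.76, 3.83, 3.87, 3.85 and 3.60 in the controls, in the same order. In the fipronil arrays it had 3.31, 3.22, 3.13, 3.02, 3.33 and 3.32. The groups did not overlap here either, and control replicate 8 was the lowest control. Psma5 fell by 0.56 ± 0.10 (SE, n = 6 per group, limma adjusted p = 0.014). Slide 1 gave -0.45, and slides 2 and 3 gave -0.61. Non-overlap with fipronil lower occurred in 3 of the 49 genes, the other being Psmb2 of the beta ring, and in 2.55% of all genes. Non-overlap with fipronil higher occurred in 0 of the 49 and in 1.63% of all genes. Psma5 kept its call whichever single array was left out, whereas Psma1 lost its call without control replicate 7 (adjusted p = 0.054) or fipronil replicate 3 (adjusted p = 0.0501).

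Psma3 gave a mixed picture across slides. Its control signals ran from -0.53 to 0.89 with a median of 0.43, and its fipronil signals from -0.46 to 1.0 with a median of 0.27. The groups overlapped throughout, with a difference of 0.02 (95% interval -0.57 to 0.62, adjusted p = 0.97). On slide 1 it was -0.97 and across slides 2 and 3 it was 0.52.

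The array names a further probe Psma3l, a synonym of Psma3 in RefSeq, that lies about a kilobase from the Psma3 probe on chromosome 6 of the rn4 build. The first 30 of the 60 bases of both probes, with their rn4 positions, are shown because they report the same locus with different values.
Psma3 (chr6:93112068-93112127): ctggaaattatcttgatattggcacctgaa
Psma3l (chr6:93111009-93111068): gcatatggctagcaccatggattatatata
The Psma3l probe read 4.35, 4.17, 4.18, 3.87, 3.95 and 3.74 in the controls, 3.79 and 3.85 in fipronil replicates 7 and 8, and 5.10, 5.19, 4.84 and 5.23 in fipronil replicates 1 to 4. Only the fipronil arrays of slide 3 stood above all controls. The 12-array difference was 0.62 (95% interval 0.06 to 1.19, adjusted p = 0.16), while slide 1 gave -0.44 and slides 2 and 3 gave 1.15.

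The remaining alpha subunits were Psma2, Psma4, Psma6 and Psma7, with differences of -0.35, 0.05, -0.08 and -0.29, and of -0.45, -0.29, -0.38 and -0.18 on slide 1. None passed, and their adjusted p-values lay between 0.14 and 0.84. Psma8, the testis form of an alpha subunit, was well above background on 0 of 12 arrays and was not tested. On slide 1 all 8 tested alpha-ring names were lower, with a median of -0.44 (all genes -0.02), beside -0.19 over the 12 arrays (all genes -0.08).

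Psma7 was read by 2 probes, and the brighter one represents the gene above. The dimmer probe ranged from -1.90 to -1.52 in the controls and from -2.60 to -2.02 in the fipronil arrays, so its groups did not overlap. Tested among all 16291 probes, a setting chosen after the data were seen, it fell by 0.60 ± 0.13 (SE, limma adjusted p = 0.023), beside -0.29 (adjusted p = 0.14) for the brighter probe. Their first 30 bases are given with rn4 positions, because the call depended on which of them was read.
Psma7, brighter (chr3:169102472-169103179): gagtacatcacccgctacattgccagtctg
Psma7, dimmer (chr3:169100977-169101036): agagattgaccatgggtgtgcttcttgtgg

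In the beta ring all 7 constitutive subunits had lower means with fipronil, and Psmb3, a subunit without a proteolytic site, was called. Psmb3 had signals of 3.70, 3.75, 3.97, 3.92, 3.90 and 3.60 in the controls. In the fipronil arrays it had 3.06, 3.03, 3.18, 3.25, 3.28 and 3.66. Fipronil replicate 8, on slide 1, lay within the control range, and the other 5 fipronil arrays lay below it. Psmb3 fell by 0.57 ± 0.13 (SE, n = 6 per group, limma adjusted p = 0.027). Slide 1 gave -0.26, and slides 2 and 3 gave -0.72. It lost its call when control replicate 5, 6 or 7 or fipronil replicate 1, 2 or 3 was left out (adjusted p between 0.052 and 0.066).

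**Figure D2:**
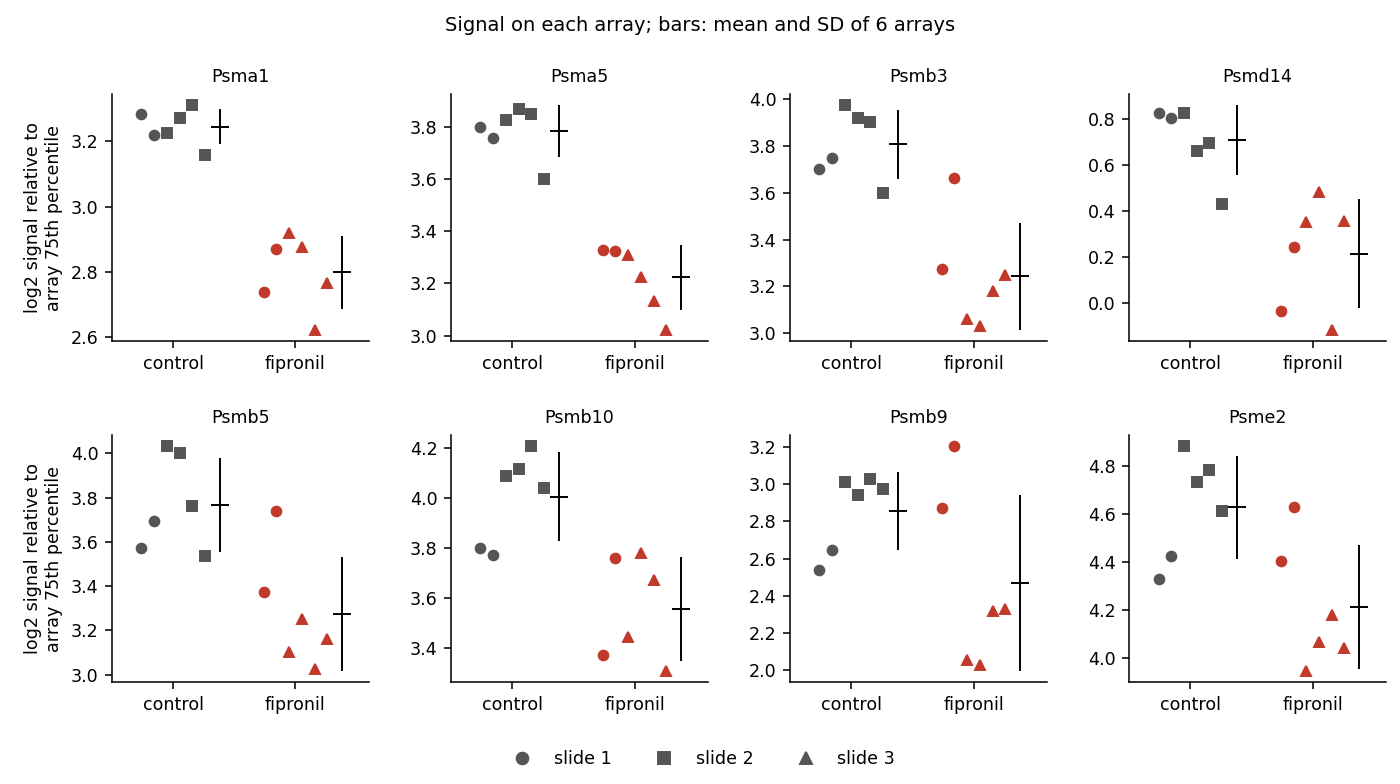
Log2 signal relative to the array's 75th percentile (vertical axis) in 8 proteasome genes, by treatment, with slides by symbol and bars for the mean and SD of 6 arrays. In Psma1 and Psma5 the fipronil arrays of slides 1 and 3 both lie below all controls, whereas in Psmb9 and Psme2 the fipronil arrays of slide 1 lie among or above the controls.

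The constitutive catalytic subunits gave small differences with wide intervals on the slide with both treatments. Psmb5, which carries the chymotrypsin-like site, ran from 3.53 to 4.03 with a median of 3.73 in the controls and from 3.02 to 3.74 with a median of 3.21 with fipronil. Only fipronil replicate 8 reached the control range. The difference was -0.49 (95% interval -0.80 to -0.18, adjusted p = 0.060). It was -0.08 on slide 1 (95% interval -0.51 to 0.36, from the fit with slide as a block), against -0.70 for the other slides.

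Psmb6, which carries the caspase-like site, ran from 2.82 to 3.41 (median 3.09) in the controls and from 2.52 to 3.07 (median 2.82) with fipronil. The groups overlapped, and the difference was -0.35 (95% interval -0.65 to -0.05, adjusted p = 0.15). On slide 1 it was -0.07 (95% interval -0.58 to 0.43, from the same block fit). Psmb7, which carries the trypsin-like site, ran from 2.22 to 2.69 (median 2.36) in the controls and from 2.10 to 2.55 (median 2.42) with fipronil. Its groups overlapped throughout, with a difference of -0.06 (95% interval -0.32 to 0.20, adjusted p = 0.81). On slide 1 the Psmb7 difference was -0.08 (95% interval -0.53 to 0.37, block fit).

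The 2 probes of Psmb6 differed in direction. The brighter one is reported above, and the dimmer one gave 0.37 (95% interval 0.01 to 0.72, adjusted p = 0.19 over all probes). The dimmer probe was above all controls on the fipronil arrays of slide 3 alone. Their first 30 bases are shown with rn4 positions because the sign of Psmb6 rested on the choice.
Psmb6, brighter (chr10:57372332-57372391): atggctatgttgatgctacctatcgggaag
Psmb6, dimmer (chr10:57372598-57372657): aggtgcttttgggagaccagatccccaagg

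Of the structural beta subunits, Psmb2 ran from 3.22 to 3.56 (median 3.43) in the controls and from 2.96 to 3.19 (median 3.10) with fipronil. The groups did not overlap, yet the difference of -0.32 (95% interval -0.54 to -0.11) did not pass (adjusted p = 0.074). Psmb2 gave -0.26 on slide 1. Psmb1 and Psmb4 gave -0.31 and -0.0077, and neither passed (adjusted p = 0.25 and 0.97). On slide 1 they gave 0.023 and -0.011. The median of the 7 beta-ring genes was -0.32 over the 12 arrays, -0.08 on slide 1 and -0.48 across slides 2 and 3.

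The 250 bases before the transcription start of the called core subunits are shown with those of Psmb5 and Psmb6, from RefSeq (GRCr8), since the core subunits are known as a co-transcribed set. Capitals mark the CCAAT box or the antioxidant response element core TGACNNNGC, the motif bound by Nfe2l1 and Nfe2l2, and each sequence is written on its gene's strand.
Psma1 (chr1:177887858-177888107, minus strand): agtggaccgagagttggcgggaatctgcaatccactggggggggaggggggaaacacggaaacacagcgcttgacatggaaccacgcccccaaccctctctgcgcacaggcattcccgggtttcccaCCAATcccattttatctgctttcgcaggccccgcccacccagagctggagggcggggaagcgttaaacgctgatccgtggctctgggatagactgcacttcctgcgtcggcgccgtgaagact
Psma5 (chr2:198584255-198584504, plus strand): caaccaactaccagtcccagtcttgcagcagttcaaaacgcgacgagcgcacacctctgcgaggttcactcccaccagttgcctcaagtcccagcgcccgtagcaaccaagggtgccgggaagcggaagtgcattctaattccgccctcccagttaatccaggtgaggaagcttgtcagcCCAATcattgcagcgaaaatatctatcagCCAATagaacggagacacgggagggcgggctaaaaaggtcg
Psmb3 (chr10:83193537-83193786, plus strand): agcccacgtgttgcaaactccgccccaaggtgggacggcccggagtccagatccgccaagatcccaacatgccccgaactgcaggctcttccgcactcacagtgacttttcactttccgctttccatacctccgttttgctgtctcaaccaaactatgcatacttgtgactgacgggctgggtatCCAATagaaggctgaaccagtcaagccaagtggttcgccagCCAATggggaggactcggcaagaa
Psmb5 (chr15:32047380-32047629, minus strand): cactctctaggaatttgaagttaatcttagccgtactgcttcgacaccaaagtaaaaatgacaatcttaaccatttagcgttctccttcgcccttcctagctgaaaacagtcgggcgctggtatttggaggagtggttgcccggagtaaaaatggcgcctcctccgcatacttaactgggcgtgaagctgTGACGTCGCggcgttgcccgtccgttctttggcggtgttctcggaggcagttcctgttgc
Psmb6 (chr10:55737638-55737887, plus strand): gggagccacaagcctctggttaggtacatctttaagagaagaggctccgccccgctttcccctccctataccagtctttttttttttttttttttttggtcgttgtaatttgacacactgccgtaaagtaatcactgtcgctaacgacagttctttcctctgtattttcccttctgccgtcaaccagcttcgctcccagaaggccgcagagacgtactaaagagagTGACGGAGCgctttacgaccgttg
Searched on both strands, TGACNNNGC was found in 8 of the 45 proteasome promoters in the table (17.8%, against 10.1% of 33469 promoters of the same length). It began 60 bases before the start of Psmb5 and 24 bases before that of Psmb6, and also occurred for Psma3, Psmb2, Adrm1, Psmd1, Psmd9 and Psme4. CCAAT was found in 20 of the 45 (44.4%, against 34%), and the palindrome bound by nuclear respiratory factor in 5 (11.1%, against 3.8%). The motifs do not overlap one another by their letters in the promoters shown, and a match is only a match of letters.

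The median difference over the 12 arrays was -0.31 for the 8 genes with TGACNNNGC and -0.21 for the 36 tested genes without it. For CCAAT the medians were -0.23 in 20 genes and -0.21 in 24, and for the palindrome -0.30 in 5 and -0.21 in 39. On slide 1 the genes that hold a motif had the lower median for all 3, -0.40 beside -0.15 for TGACNNNGC, -0.26 beside -0.08 for CCAAT and -0.45 beside -0.12 for the palindrome. These medians are descriptions, and their differences were not tested. The 3 called genes in the table hold CCAAT and none of them holds TGACNNNGC.

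The immunoproteasome subunits replace the constitutive catalytic ones after interferon signals. Here Psmb8 and Psmb9 changed direction between the slide sets, whereas Psmb10 was lower in both. Psmb8, which takes the place of Psmb5, ran from 3.40 to 3.87 (median 3.66) in the controls and from 3.38 to 3.78 (median 3.46) with fipronil. The groups overlapped, with a difference of -0.14 (95% interval -0.40 to 0.13, adjusted p = 0.51). It gave 0.20 on slide 1 and -0.31 across slides 2 and 3, and the test between these did not pass (limma adjusted p = 0.12).

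Psmb9, which takes the place of Psmb6, ran from 2.54 to 3.03 (median 2.96) in the controls and from 2.03 to 3.20 (median 2.33) with fipronil. On slide 1 the controls read 2.54 and 2.65 and the fipronil arrays 2.87 and 3.20, so fipronil was the higher there. Across the other slides the controls read 2.94 to 3.03 and the fipronil arrays 2.03 to 2.33, so fipronil was the lower. The differences of 0.44 on slide 1 and -0.80 across slides 2 and 3 themselves differed by 1.25 (limma adjusted p = 0.014, a test that 9.14% of all genes passed). The 12-array difference of -0.39 (95% interval -0.82 to 0.04) did not pass (adjusted p = 0.24).

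Psmb10, which takes the place of Psmb7, ran from 3.77 to 4.21 (median 4.06) in the controls and from 3.31 to 3.78 (median 3.56) with fipronil. Fipronil replicate 2 alone reached into the control range. The difference was -0.45 (95% interval -0.72 to -0.18, adjusted p = 0.055), with -0.22 on slide 1. Psmb11, the thymus form, had 2 probes, well above background on 0 and 1 of the 12 arrays, and was not tested.

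In the base of the regulatory particle all 10 genes were lower in both the 12-array and the slide 1 difference, and none passed the threshold. The 6 ATPases are Psmc1 to Psmc6, Psmd1 and Psmd2 are scaffolds, and Psmd4 and Adrm1 bind ubiquitin. Psmc2 had the largest ratio of difference to error among them. It ran from 3.45 to 4.16 (median 3.80) in the controls and from 3.15 to 3.56 (median 3.45) with fipronil, and the groups overlapped. Its difference was -0.41 (95% interval -0.70 to -0.11, adjusted p = 0.095). Slide 1 gave -0.07, against -0.57 for the other slides.

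Psmc6 differed most on slide 1. Its controls ran from -2.32 to -0.76 (median -1.49) and its fipronil arrays from -2.55 to -1.08 (median -1.69), a spread that exceeded the difference between groups. The difference was -0.17 (95% interval -0.81 to 0.46, adjusted p = 0.75). Slide 1 gave -1.09, whereas slides 2 and 3 gave 0.28. The other 8 base genes ranged from -0.36 for Adrm1 to -0.13 for Psmc4. Both scaffolds were among them, Psmd1 at -0.30 (adjusted p = 0.12) and Psmd2 at -0.23 (adjusted p = 0.21). The median of the 10 was -0.25 over the 12 arrays, -0.29 on slide 1 and -0.21 across slides 2 and 3, which was the smallest gap between slide sets among the 7 classes.

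In the lid, the catalytic subunit fell while the median of the 9 genes was 0.03. Psmd14, the metalloprotease that cuts ubiquitin chains off substrates, had signals of 0.82, 0.80, 0.83, 0.66, 0.70 and 0.43 in the controls. In the fipronil arrays it had 0.35, 0.48, -0.12, 0.36, -0.04 and 0.24. Control replicate 8 lay within the range of the fipronil arrays, and the other 5 controls lay above it. Psmd14 fell by 0.49 ± 0.13 (SE, n = 6 per group, limma adjusted p = 0.045). Slide 1 gave -0.71, and slides 2 and 3 gave -0.39. This call was kept without fipronil replicate 2 (adjusted p = 0.045) or 8 (adjusted p = 0.032), and lost without any other single array (adjusted p between 0.0503 and 0.097). The first 30 bases of its probe are shown because it reads the only called member outside the core.
Psmd14 (chr3:43696292-43699023, rn4): ttacaccgtcagagtgattgatgtgtttgc

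The other 8 lid genes lay between -0.19 for Psmd8 and 0.25 for Psmd13 and none passed. Psmd7, the partner of Psmd14 in its dimer, gave 0.04 (95% interval -0.33 to 0.41, adjusted p = 0.90). Shfm1, now named Sem1, gave 0.23, Psmd11 gave 0.21, Psmd12 gave 0.03, Psmd3 gave 0.02 and Psmd6 gave -0.15. On slide 1 the signs of 6 of these 8 turned, with -0.19 for Shfm1, -0.37 for Psmd7, -0.058 for Psmd11, -0.65 for Psmd12, -0.12 for Psmd3 and 0.022 for Psmd8. Slide 1 and slides 2 and 3 gave opposite medians for the lid, -0.19 and 0.24. Among them Psmd12 read 3.56 and 3.36 in the controls and 2.67 and 2.95 in the fipronil arrays of slide 1. Across the other slides it read 2.95 to 3.39 in the controls and 3.40 to 3.86 with fipronil. Its differences of -0.65 and 0.38 differed by -1.03 (limma adjusted p = 0.035).

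Among the activators and the inhibitor, 5 genes, none passed and the direction varied by gene and slide. Psme2, the partner of Psme1 in the interferon-induced activator ring, ran from 4.33 to 4.88 (median 4.67) in the controls and from 3.95 to 4.63 (median 4.12) with fipronil. The groups overlapped because the slide 1 controls read 4.33 and 4.42 and the slide 1 fipronil arrays 4.40 and 4.63. The difference was -0.42 (95% interval -0.72 to -0.11, adjusted p = 0.098). Slide 1 gave 0.14 and slides 2 and 3 gave -0.69, which differed by 0.83 (limma adjusted p = 0.030).

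Psme1, whose protein shares a ring with that of Psme2, gave -0.0027 (95% interval -0.27 to 0.27, adjusted p = 0.99). Psme3, the nuclear activator, gave -0.25, with -0.55 on slide 1. Psmf1, an inhibitor of the core, gave -0.18, with 0.36 on slide 1 and -0.45 across slides 2 and 3. Psme4, the large single-chain activator, ran from -2.44 to -1.41 (median -1.88) in the controls and from -2.42 to -1.17 (median -1.76) with fipronil. Its groups overlapped throughout, and the 12-array difference was 0.14 (95% interval -0.42 to 0.69, adjusted p = 0.78). Slide 1 gave -0.61, whereas slides 2 and 3 gave 0.51.

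The 7 assembly factors were all lower in the 12-array difference and none passed. Pomp, which matures the core particle, ran from 4.79 to 5.13 (median 5.08) in the controls and from 4.82 to 5.14 (median 4.98) with fipronil. Its groups overlapped throughout, with a difference of -0.05 (95% interval -0.27 to 0.16, adjusted p = 0.79). Its dimmer probe gave 0.11 (95% interval -0.17 to 0.39, adjusted p = 0.63 over all probes).

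Psmd5, a chaperone of the base, ran from -0.35 to 0.01 (median -0.02) in the controls and from -0.72 to -0.13 (median -0.50) with fipronil. Control replicate 5 lay below fipronil replicates 4 and 8, and the other 5 controls lay above every fipronil array. The difference was -0.37 (95% interval -0.64 to -0.10, adjusted p = 0.096), with -0.32 on slide 1. The base chaperones Psmd9 and Psmd10 gave -0.08 and -0.41, and the core chaperones Psmg1, Psmg2 and Psmg4 gave -0.33, -0.21 and -0.21. Of the 7 only Psmg2 turned on slide 1, to 0.12.

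**Figure D3:**
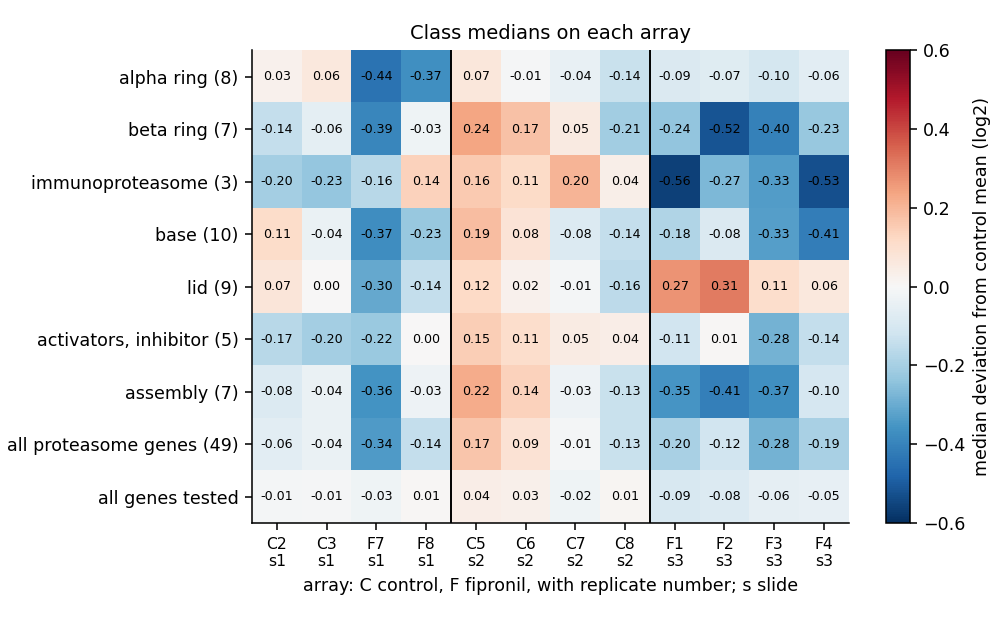
Median deviation from the control mean (log2, colour and printed value) of each class of proteasome genes on each array, with the number of genes in brackets and vertical lines between slides. The alpha ring is lowest on the slide 1 fipronil arrays (-0.44 and -0.37), the beta ring reaches -0.52 on slide 3, and the lid is above the control mean on all 4 slide 3 arrays (0.06 to 0.31).

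On slide 1, where both treatments were hybridised together, 40 of the 49 genes were lower with fipronil (81.6%, against 51.6% of all genes), with a median of -0.19 beside -0.02 over all genes. The slide 1 sign was opposite to the 12-array sign in 17 of the 49. In 24 of them both fipronil arrays lay below both controls (49%, against 28.5% of all genes). The fit with slide as a block takes its difference from these 4 arrays and called 0 of the 49 by limma at an adjusted p under 0.05. The lowest adjusted p was 0.14, for Psmd14, and of all genes 0.0886% were called in that fit. At an unadjusted p under 0.05, 10 were lower (20.4%, against 10.5% of all genes) and 1, Psmb9, was higher (2.04%, against 8.58%). With slide as a random block 0 of the 49 were called either, with 0.155% of all genes called. The 4 genes that fell over the 12 arrays had adjusted p-values of 0.16, 0.17, 0.46 and 0.14 in the fixed block, in the order Psma1, Psma5, Psmb3 and Psmd14.

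**Figure D4:**
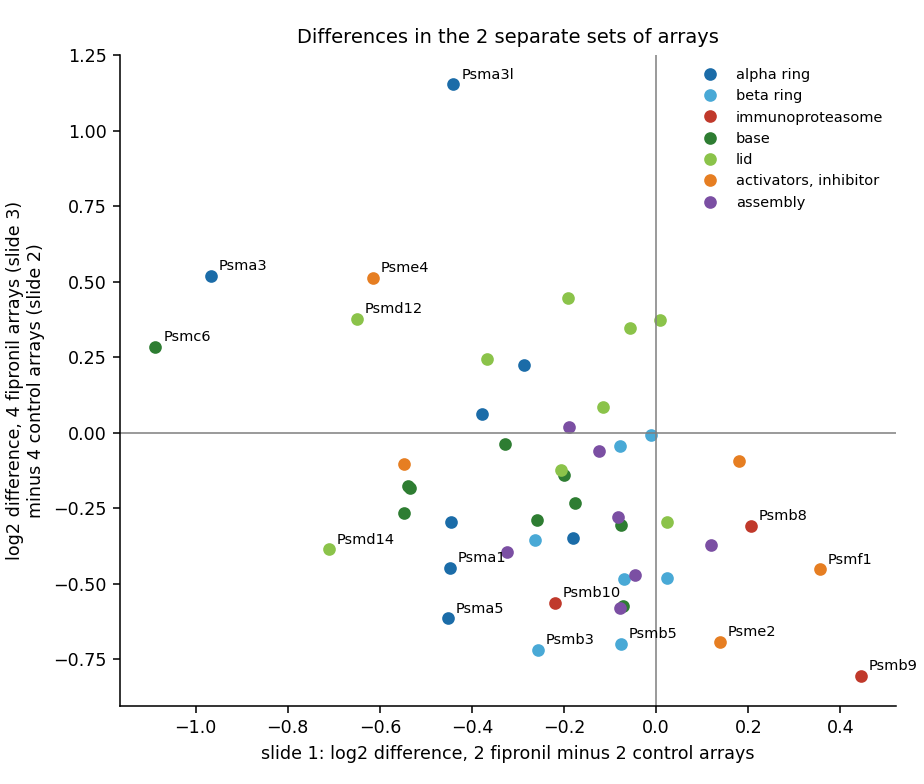
Difference on slide 1 (horizontal axis, 2 fipronil minus 2 control arrays) against the difference across slides 2 and 3 (vertical axis, 4 minus 4 arrays) of the 49 proteasome genes, log2, coloured by class. The lower left holds 28 genes, Psma1, Psma5, Psmb3 and Psmd14 among them, whereas Psmb9 and Psme2 lie lower right and Psma3l and Psmd12 upper left.

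The separate sets of arrays gave the same direction in part. Of the 49 genes, 40 were lower on slide 1 and 36 across slides 2 and 3. Both differences were lower in 28 of the 49 (57.1%, against 27% of all genes). This 28 is no more than the separate counts of 40 and 36 would give if the 49 genes were unrelated between the sets. Over the 49 genes the slide 1 difference and the difference across slides 2 and 3 correlated at r = -0.43, beside -0.24 over all 13543 genes. These are descriptions over genes, which share their arrays and are not independent replicates. The test of the difference between both sets passed in 4 of the 49 (Psma3l, Psmb9, Psmd12 and Psme2), beside 9.14% of all genes. At an unadjusted p under 0.05 it was 11 of the 49 (22.4%), beside 32.6% of all genes.

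Slides also differed within a treatment. Control arrays of slide 2 were higher than those of slide 1 by a median of 0.06 over the 49 genes, and by 0.33 over the 3 immunoproteasome genes. Fipronil arrays of slide 3 were higher than those of slide 1 by a median of 0.12 over the 49, and by 0.38 over the lid, where 8 of 9 genes were higher. For Psma1 the same within-treatment shifts were -0.01 in both groups, and for Psma5 they were 0.01 and -0.15. For Psmb3 they were 0.12 and -0.34, and for Psmd14 they were -0.16 and 0.16. The part of slide, scan and array signal in the 12-array differences was not tested.

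**Figure D5:**
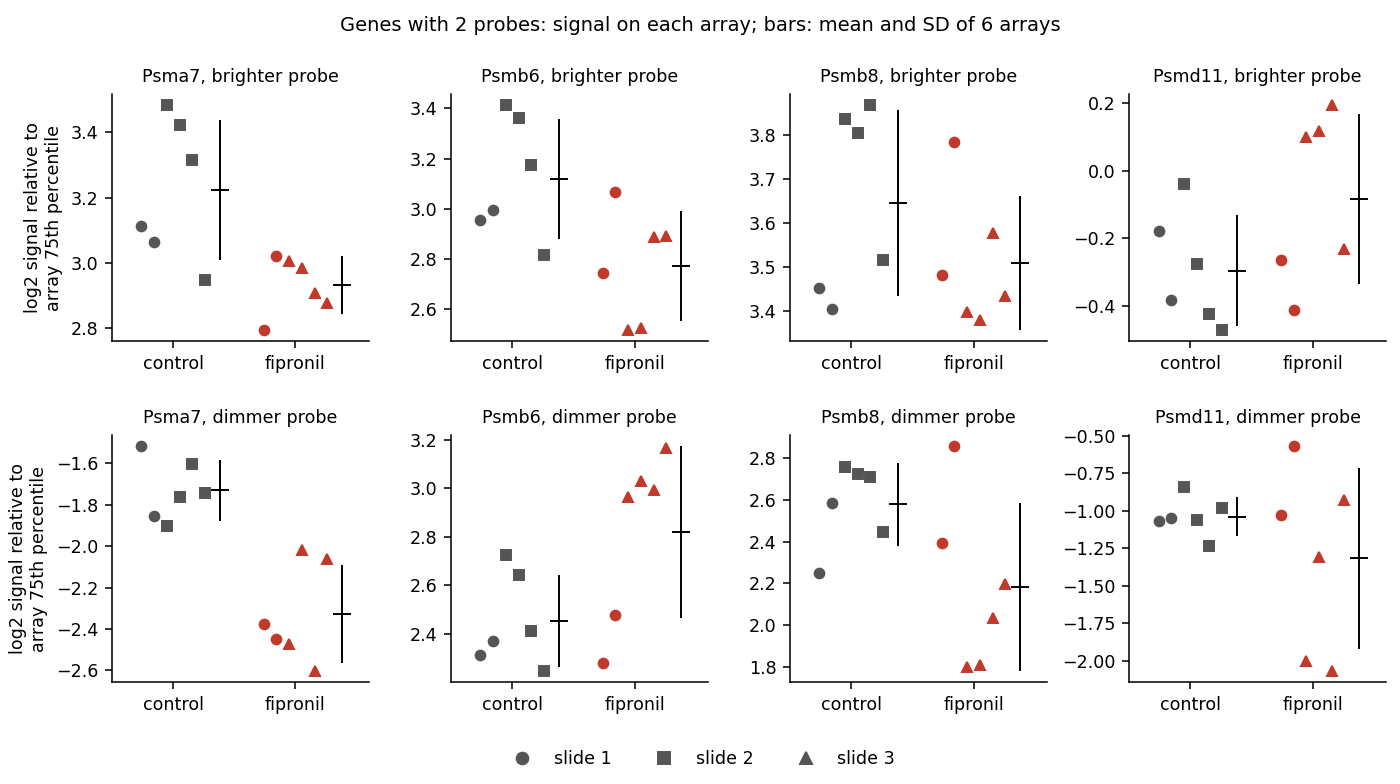
Log2 signal relative to the array's 75th percentile for the brighter (upper) and dimmer (lower) probe of 4 proteasome genes with 2 tested probes, by treatment, with slides by symbol and bars for mean and SD of 6 arrays. Both Psma7 probes have a lower mean with fipronil, whereas the dimmer Psmb6 probe is higher on slide 3 and the Psmd11 probes differ in direction.

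A further probe was also tested for Psmb8, Psmc1 and Psmd11. The dimmer probe gave -0.40 for Psmb8 and -0.40 for Psmc1, beside -0.14 and -0.21 for the brighter ones. For Psmd11 the brighter probe gave 0.21 and the dimmer -0.28, with 95% intervals that both held 0. Of these 6 probes none passed, with adjusted p-values of 0.057 or more. Psmg4 had a further probe that stood above background on 0 arrays.

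The count of 4 moved with single arrays and with background correction. Without control replicate 7 or fipronil replicate 3 it was 1, Psma5, without control replicate 5 or 6 or fipronil replicate 1 it was 2, and without fipronil replicate 8 it was 10. In that last setting 9.3% of all genes were called lower and 5.63% higher, and without control replicate 7 it was 0.95% and 0.84%. Without fipronil replicate 3 it was 0.93% and 0.75%, and without fipronil replicate 1 it was 1.28% and 1.04%. Without control replicate 5 it was 1.29% and 1.24%, and without control replicate 6 it was 0.95% and 0.97%. With all 12 arrays it was 2.77% and 2.24%. After the alternative background correction (normexp) followed by 75th percentile scaling, 29 of the 49 were called lower and 1 higher, Adrm1. In that setting all genes shifted to a median of 0.17, with 1661 called lower and 5113 higher, beside 375 and 303 with the values used here. Across the 4 other scalings and sources of values tried, 37 to 44 of the 49 were lower, and the 4 called genes were lower in all of them.

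Psmc3ip and Psme1-ps1, which the rule includes by name only, gave -0.06 and -0.16 and did not pass (adjusted p = 0.85 and 0.50). By position, the 49 genes lie on 18 chromosomes in GRCr8, with at most 7 on 1 chromosome. Psmb8 and Psmb9 lie beside the peptide transporter genes Tap1 and Tap2 on chromosome 20, in the order Tap2, Psmb8, Tap1, Psmb9 with no gene between them.

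The pathway of Nfe2l1, which is known to drive proteasome genes, was listed as 15 genes, of which 13 were tested and 0 were called. At an unadjusted p under 0.05, 2 were lower (15.4%, against 15.7% of all genes) and 0 higher (against 9.37%). The median of the 13 was -0.13, beside -0.08 over all genes. Nfe2l1 itself ran from -1.29 to -0.90 (median -1.05) in the controls and from -1.16 to -0.38 (median -0.81) with fipronil, and the groups overlapped. Its difference was 0.29 (95% interval -0.02 to 0.59, adjusted p = 0.23), with 0.15 on slide 1.

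Nfe2l2, the related factor of the oxidative stress response, ran from 1.85 to 2.14 (median 1.92) in the controls and from 1.34 to 1.79 (median 1.58) with fipronil. The groups did not overlap, and the difference of -0.39 (95% interval -0.62 to -0.16) just missed the threshold (adjusted p = 0.052). It was -0.43 on slide 1 and -0.37 across slides 2 and 3. Ddi2, the protease that activates Nfe2l1, ran from -2.07 to -1.32 (median -1.79) in the controls and from -2.58 to -1.89 (median -2.24) with fipronil. Its difference was -0.52 (95% interval -0.85 to -0.18, adjusted p = 0.067), with -0.45 on slide 1.

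Factors that bring substrates to the proteasome or edit their ubiquitin were listed as 23 names, of which 19 were tested and 0 called, with a median of -0.16. At an unadjusted p under 0.05, 4 of these were lower (21.1%, against 15.7% of all genes) and 0 higher (against 9.37%). Usp14, the deubiquitinase bound to the base, ran from 0.98 to 1.45 (median 1.21) in the controls and from 0.35 to 0.92 (median 0.86) with fipronil. The groups did not overlap, with a difference of -0.47 (95% interval -0.76 to -0.19, adjusted p = 0.053) and -0.72 on slide 1. Rad23b, a shuttle for ubiquitinated proteins, gave -0.38 (95% interval -0.64 to -0.11, adjusted p = 0.083), with signals of 2.16 to 2.62 in the controls and 1.70 to 2.30 with fipronil, which overlapped.

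The ubiquitin genes and activating enzymes were listed as 6, of which 5 were tested and 0 called, with a median of 0.05. At an unadjusted p under 0.05, 1 of the 5 was lower (20%, against 15.7% of all genes) and 0 higher (against 9.37%). The polyubiquitin gene Ubb ran from 7.19 to 7.64 (median 7.36) in the controls and from 6.91 to 7.34 (median 7.02) with fipronil. Its groups overlapped, and it gave -0.33 (95% interval -0.58 to -0.09, adjusted p = 0.094), with -0.09 on slide 1. Uba1, the main ubiquitin-activating enzyme, gave 0.24 (95% interval -0.04 to 0.52, adjusted p = 0.26).

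Genes of antigen processing, which use the peptides the proteasome makes, were listed as 11, of which 10 were tested, 2 fell and 0 rose, beside 2.77% and 2.24% of all genes. Irf1, an interferon-response factor that drives immunoproteasome genes, ran from 2.08 to 2.85 (median 2.44) in the controls and from 1.29 to 2.26 (median 1.66) with fipronil. Fipronil replicate 8 alone reached the control range. Irf1 fell by 0.77 ± 0.18 (SE, n = 6 per group, limma adjusted p = 0.030). Slide 1 gave -0.14, against -1.09 for the other slides.

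B2m, the light chain of class I molecules, ran from 1.74 to 2.27 (median 1.91) in the controls and from 1.19 to 1.69 (median 1.41) with fipronil. The groups did not overlap, and B2m fell by 0.51 ± 0.13 (SE, n = 6 per group, limma adjusted p = 0.036), with -0.38 on slide 1. Both calls were lost with slide in the limma fit, with adjusted p-values of 0.79 for Irf1 and 0.35 for B2m in the fixed block and 0.22 and 0.18 in the random block. The neighbours of Psmb8 and Psmb9, named here for their position, gave 12-array differences of -0.36 for Tap1 and -0.21 for Tap2 (adjusted p = 0.29 and 0.33). On slide 1 they gave 0.37 and 0.27, as Psmb9 gave 0.44.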

How the data were processed

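Total RNA of 12 N27 samples was measured on one-colour Agilent arrays. The authors extracted spot values with Agilent's Feature Extraction software, whose version is 10.7 in the submitters' processing notes and 10.1.1.1 in the file headers. Per the file headers, the processed signal is an intensity after background subtraction, not scaled across arrays. The raw mean and local background signals, also intensity values per the file headers, entered the normexp alternatives, and the spot flags (well above background, saturated, outlier) are 0 or 1. The authors' deposited series matrix, used as an alternative, is on a log2 scale and quantile-normalized, uncentred, with a column median of 2.63 and a floor of 1.5. Each column ranked spots as its own array did (Spearman 1.0, any other array at most 0.97).

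From the processed signals, outlier spots (323 to 711 per array) were left out, 0 spots were saturated, the 75th percentile of log2 signal was subtracted per array and spots of a probe were averaged. Probes above background on 6 or more arrays were kept (16291), with the brightest probe per gene (13543 genes). Symbols came from RefSeq GRCr8 through accession (21102 probes), symbol (6695) or synonym (427), and 17374 probes kept the files' name. Sequences came from the RefSeq promoter table, which holds 45 of 50 proteasome genes, and the array files (probe positions on rn4). Groups came from sample titles and the treatment label. limma 3.58.1 (lmFit, eBayes, two-sided) in R 4.3.3 compared groups, with Benjamini-Hochberg adjustment over all genes and a threshold of 0.05. The fit used no slide term, and slide as a block and a test of slide 1 against slides 2 and 3 were run beside it. The script was tested on simulated data. The number of arrays limits the precision.

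The naming rule took members past the threshold and, per class, those with the largest moderated t and the largest slide 1 difference. It always took the catalytic subunits, Psmd14 and Pomp. Values on every array are given for members past the threshold. For the rest, the lowest, median and highest value of each group are given. Of each list around the proteasome, called genes are named, otherwise the 2 with the largest t, and always Nfe2l1. Others named with values are members of a class, were singled out after their values were seen, or are named for their position. The members and lists were chosen with earlier results of these data known. Replicate numbers 2, 3, 7 and 8 occur in both groups, with correlations of 0.43, 0.08, -0.11 and -0.31 between the deviations of arrays that share a number, and were not used as pairs.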

Additional observations from a re-analysis of the deposited data

Results flagged for a closer look

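Single arrays stood apart from the other 5 of their group in 3 of the 104 groups of 6 values scanned, where chance alone gives about 1 in 20. Psmb4, a structural subunit of the beta ring, read 4.24 on fipronil replicate 7, against 4.52 to 4.65 on the other fipronil arrays. Psmd9, a chaperone of the base, read 0.23 on the same array, against 0.58 to 0.76. Psmd5, also a chaperone of the base, read -0.35 on control replicate 5, against -0.06 to 0.01 on the other controls.

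The difference on slide 1 and the difference across slides 2 and 3 departed from each other in 4 proteasome genes (limma with Benjamini-Hochberg adjustment). The slide 1 difference minus the other was -1.59 for Psma3l (adjusted p = 0.0095), 1.25 for Psmb9 (adjusted p = 0.014), -1.03 for Psmd12 (adjusted p = 0.035) and 0.83 for Psme2 (adjusted p = 0.030). Psmb9 and Psme2, both induced by interferon, were the 2 with a positive value.

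Of the 47 tested genes listed around the proteasome, 5 departed in the same test (10.6%, beside 9.14% of all genes). Tapbp and Tap2, which load and transport peptides, gave 1.47 (adjusted p = 0.016) and 0.72 (adjusted p = 0.032). Txnl1, a thioredoxin bound to the regulatory particle, gave -1.20 (adjusted p = 0.016). Zfand2a and Zfand5, zinc-finger proteins that bind ubiquitin or the proteasome, gave -1.04 (adjusted p = 0.040) and -0.95 (adjusted p = 0.049). The part of slide or scan in these values was not tested.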

How the results depend on the processing

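The 4 called genes were lower in every setting run, and 4 were called after quantile normalization, median scaling and in the deposited table. Of all genes, 2.57%, 3.21% and 2.60% were called lower there and 2.67%, 1.11% and 2.67% higher. With a gene's probes averaged 5 were called lower, beside 2.75% of all genes lower and 2.02% higher. With only probes above background on all 12 arrays, 6 of 48 were called lower, and 9.1% of all 10610 genes in either direction. The count of genes called lower was 9 after normexp with quantile normalization, 29 (with 1 higher) after normexp with 75th percentile scaling, 11 (1 higher) with array weights and 10 (2 higher) on slides 2 and 3 alone. The shares of all genes called lower and higher were 3.9% and 3.6%, 12.3% and 37.8%, 10% and 6.37%, and 12.9% and 9.59% in these 4 settings, beside 2.77% and 2.24%. The count was 0 with slide as a fixed or random block and on slide 1 alone. Of all genes, 0.0886% and 0.155% were called with the fixed and random block, and 0% on slide 1 alone. Without a filter 6 of 51 were called lower and 1 higher, Psma8, which stands above background on no array. In that setting 45.1% of all 36180 names were called. Leaving out 1 array gave 1 to 10 lower, 0 to 1 higher, and a median of -0.26 to -0.17 (0 called with the slide block). In those fits without the slide block, 0.93% to 9.3% of all genes were called lower and 0.75% to 5.63% higher. The median was -0.35 after normexp with 75th percentile scaling. All genes had a median of -0.18 under median scaling, with 435 called lower and 150 higher, 0.17 after normexp with 75th percentile scaling, and 0.55 without a filter.

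With the replicate number as a block, 0 of the 49 were called, and 0 of all 13543 genes. Psma3, Psme4 and Psmb7 gave -0.39, -0.16 and 0.045 there. The replicate numbers may not mark pairs.

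Over all settings 24 of the 49 genes kept their sign and 25 turned in at least 1. Of the 18 genes taken by the naming rule, 9 turned, Psmb7 with the replicate block and 8 as follows. Psma3 gave -0.078 under median scaling, -0.066 after normexp with 75th percentile scaling, -0.97 on slide 1 or with the fixed block, -0.29 with the random block, and -0.15 to 0.18 without single arrays. Psme4 gave -0.61 and -0.10 in the fixed and random block. On slide 1 or with the fixed block Psmb8 gave 0.20, Psmb9 0.44 and Psme2 0.14. Psmc6 gave 0.18 after normexp with 75th percentile scaling and 0.28 on slides 2 and 3. Averaged probes gave 0.030 for Pomp and 0.010 for Psmb6, and Pomp gave 0.019 on slides 2 and 3. Fewer arrays entered the slide 1 values; the other causes were not tested.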
